A study of Mus musculus with 3 samples.

Results

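The regions described here are Argonaute 2 (Ago2) peaks that lie across the stop codon of a protein-coding transcript. A peak was a member when it overlapped, on the strand of the transcript, at least 10 nt of the coding sequence before the stop codon and at least 10 nt of the 3′UTR after it. By this rule 7547 of 2039384 peaks were members, of which 1192 of 711377 came from replicate 1, 3112 of 498071 from replicate 2 and 3243 of 829936 from replicate 3. The rule used the position of a peak and no measured value. All peaks came from N2A cells, a mouse neuroblastoma line, which were untreated and kept under basal conditions. Per the labels each of the 3 samples was crosslinked with ultraviolet light once at 400 mJ per square cm and then 2 times at 200 mJ per square cm. The samples form 1 group, so that libraries, strands and positions are compared and not conditions. Nothing in the labels says whether the samples were separate cultures, and the spread between them may be technical.

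Ago2 is the protein that carries microRNAs (miRNAs) to their target transcripts, and in HITS-CLIP ultraviolet light fixes it to RNA in contact with it, an antibody collects it, and the fragments that came with it are sequenced. The stop codon is where the ribosome releases the finished protein and where the 3′UTR begins. Ribosomes moving along the coding sequence displace bound Ago2, and miRNA sites are known to be most effective in the 3′UTR outside the first stretch after the stop codon, which a terminating ribosome still covers.

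The deposited intervals seemed to have been widened by 30 nt at either end, as 3 on the mitochondrial chromosome started before its first base, by up to 30 nt, and the last one there ended 30 nt past its end. No source states such padding. The interval without this padding is called the central part of a peak. For 158 stop codons a peak lay across in every library, which was 0.585% of the 26997 stop codons tested. Of these, 12 also had the central part at least 10 nt to both sides in every library, and the 4 with the narrowest peaks are printed with the stop codon in capitals. They show the codons that lay well inside a peak of each library. The fifth, of Cnnm1, belongs to 1 of 2 genes with a stop codon crossed in every library and no other exonic peak in any library, and the sixth, of Pdzd8, is followed after 3 nt by a match to the seed of miR-21a-5p, the miRNA that the study was about. Pdzd8 was chosen after its values were seen. Sequence is GRCm38, printed 5′ to 3′ on the strand of the transcript, with 12 coding nt before and 15 nt of 3′UTR after the stop codon.
Prpf38b: gatgagactgtgTGAagattgtgtaaactt
Casd1: aaatcaagactgTAGgctcctacaatccta
Alg10b: aggtttatgtggTAGtggtaggaataattt
Leo1: gaagaagatgacTGAgctacaaactgtgaa
Cnnm1: cccctgatcacaTGAccaggtcttccctca
Pdzd8: tctgagtcagtgTAAtcaataagctatttc
These windows lie at chr3:108903904-108903933 (minus strand), chr6:4642104-4642133 (plus), chr15:90228365-90228394 (plus), chr9:75466284-75466313 (plus), chr19:43495024-43495053 (plus) and chr19:59299508-59299537 (minus), in the order printed. In each of them coding exon and 3′UTR lie in 1 exon.

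The share of peaks that crossed a stop codon differed between the libraries by more than counting error. Of the peaks on the 21 primary chromosomes, replicate 1 had 0.168% across a stop codon (0.158 to 0.177%, Wilson interval at the 95% level). Replicate 2 had 0.625% (0.604 to 0.647%). Replicate 3 had 0.391% (0.378 to 0.405%), and the mean was 0.395 ± 0.229% (SD, n = 3). These intervals cover the counting of peaks only, since the table gives no reads and the depth of the libraries is unknown. Replicate 1 was lowest although it held more peaks than replicate 2. Without replicate 1 the mean was 0.508 ± 0.166% (n = 2). The authors' score was 60, the highest value in the table, for 91.9%, 97.1% and 97.4% of the members in replicates 1, 2 and 3. It gave no order among these. Over all peaks of these chromosomes the shares were higher, at 98.9%, 99.3% and 99.7%.

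Counted by stop codon, 1229 of 26997 were crossed in replicate 1 (4.55%), 3053 in replicate 2 (11.3%) and 3156 in replicate 3 (11.7%). A codon could be crossed by more than 1 peak and a peak could cross more than 1 codon. Between 96.4% and 97.6% of the members of a library crossed a single stop codon, and the most crossed by 1 peak was 4. Replicates 2 and 3 lay close together, and replicate 1 had fewer than 1 in 2 of their crossings. As a background, the same rule was applied to peaks on the opposite strand, where 739, 915 and 754 stop codons were crossed. Crossings on the strand of the transcript were thus 1.66, 3.34 and 4.19 times as frequent in replicates 1, 2 and 3, a ratio above 1 in every library. The mean log2 ratio was 1.51 ± 0.69 (exact sign-flip permutation test over 3 libraries, two-sided, p = 0.25, the smallest this design allows). Without replicate 1 it was 1.90 ± 0.23.

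The width of a peak separated members that followed the strand of the transcript from members that did not. Peaks of 86 to 200 nt gave 380, 1869 and 2071 crossed stop codons in replicates 1, 2 and 3, against 23, 41 and 72 on the opposite strand. The ratio was 16.5, 45.6 and 28.8, with a mean of 30.3 ± 14.6. Every library was above the other width classes here. The narrowest class, 79 to 85 nt, had ratios of 1.64, 4.02 and 3.36 (mean 3.01 ± 1.23), and peaks of 201 to 1000 nt had 2.88, 7.83 and 7.32 (6.01 ± 2.73). For peaks over 1000 nt the ratio was 0.93, 0.789 and 0.83, below 1 in each library, with a mean of 0.85 ± 0.0721. Crossings by these very long peaks were thus slightly more frequent on the opposite strand.

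**Figure D1:**
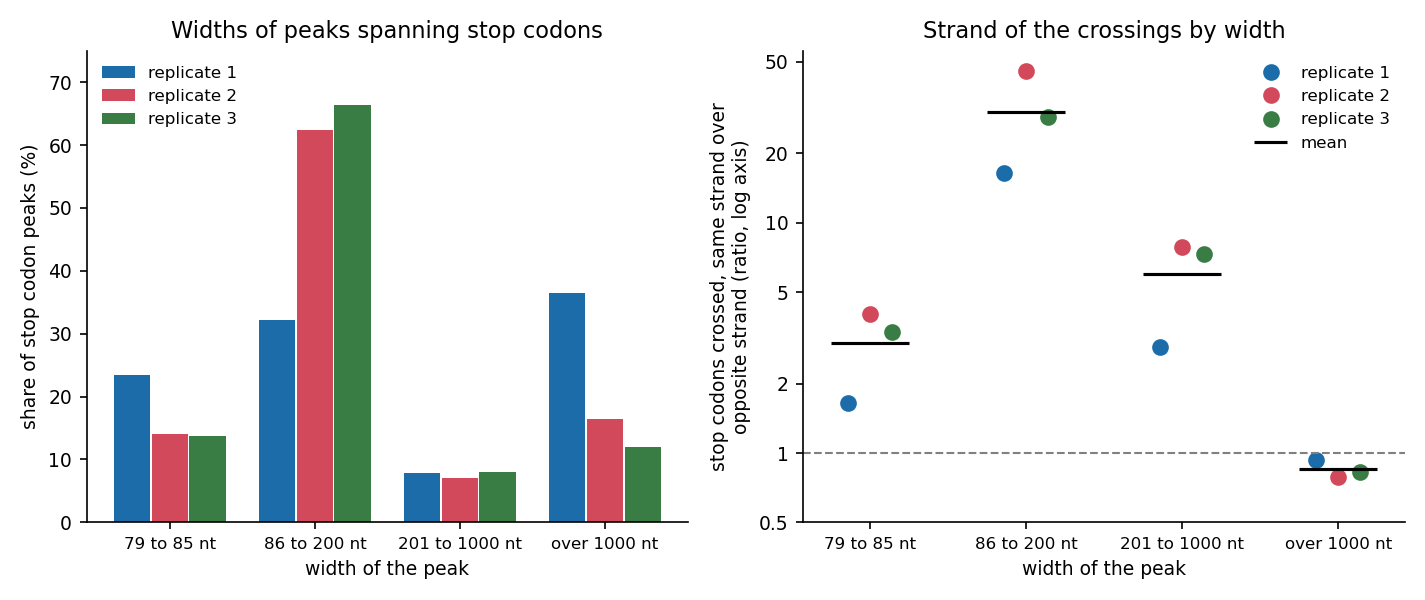
Left, share of the peaks spanning stop codons (%) that fell in each of 4 width classes, 1 bar per library. Right, number of stop codons crossed on the strand of the transcript over the number crossed on the opposite strand, on a log axis, with 1 point per library, the mean as a line and equality dashed. Peaks of 86 to 200 nt lay at 16.5 to 45.6, and peaks over 1000 nt at 0.789 to 0.93.

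The libraries differed in how much of each class they held. Members over 1000 nt made up 36.5% in replicate 1, 16.4% in replicate 2 and 12% in replicate 3, while members of 86 to 200 nt made up 32.2%, 62.5% and 66.3%. Over all peaks the shares were 3.02%, 4.83% and 2.77% for over 1000 nt, and 24.0%, 31.8% and 42.6% for 86 to 200 nt. The low strand ratio of replicate 1 over all widths therefore stood beside its larger share of very long members. The part of that share in the ratio was not tested. Median member width was nevertheless alike at 106, 104 and 103 nt, against 83, 84 and 85 nt over all peaks. Without peaks over 1000 nt, a setting chosen after the data had been seen, the log2 strand ratio had a mean of 3.01 ± 1.12 and 131 stop codons were crossed in every library.

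Members lay about evenly to both sides of the stop codon, with 51.9%, 50.7% and 50.2% of midpoints on the 3′UTR side in replicates 1, 2 and 3. The midpoint of a member lay at a median of 3.5, 1.5 and 0.5 nt after the stop codon in replicates 1, 2 and 3, with quartiles from -29.6 to 30 nt in the first of these, -23.5 to 26.0 nt in the second and -23.5 to 23.5 nt in the last. Since a peak must reach both sides to be a member, the rule itself draws the midpoints toward the codon. The median reach was 66, 56 and 55 nt into the coding side and 68, 59 and 56 nt into the 3′UTR side. Only a part of the members had the stop codon inside the central part, with 10 nt to spare on both sides: 46.5%, 35.4% and 33.8% over all widths. Among members of 86 to 200 nt it was 19.3%, 24.5% and 26.0%, a mean of 23.2 ± 3.53%. An interval of 86 nt has a central part of only 26 nt, so that few placements of the narrower members could meet this condition, and a central part can cover the codon without meeting it. Parts of some members lay outside the mature transcript: 43.96%, 28.1% and 27.4% of members also covered intron, and 23.9%, 11.6% and 10.2% ran past the annotated end of the transcript. For members of 86 to 200 nt these shares were at most 16.6% and 3.35%.

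Whether peaks gathered at stop codons was asked by applying the same overlap to fixed positions near them. For 7914 stop codons with enough of the same exon on both sides, a position 200 nt before, the stop codon itself and a position 200 nt after were compared. In replicate 1, 3.83% were crossed before, 4.59% at the stop codon and 5.14% after. In replicate 2 the shares were 8.11%, 9.74% and 12.2%. In replicate 3 they were 7.99%, 9.03% and 11.1%. All 3 libraries had the same order, coding position, stop codon, 3′UTR position. The log2 ratio of the stop codon to the position before was 0.23 ± 0.05, and to the position after -0.26 ± 0.09 (exact sign-flip permutation test, two-sided, p = 0.25 each, the smallest possible). No separate maximum was seen at the stop codon, which lay on a slope from lower coverage in the coding sequence to higher coverage in the 3′UTR. With peaks of 86 to 200 nt the slope was steeper, at 0.44 ± 0.14 and -0.51 ± 0.12. In 5585 stop codons with 300 nt of exon on both sides, the position of the stop codon was covered in 5.50%, 10.8% and 9.74% and the position 100 nt after it in 5.77%, 12.4% and 11.1% (replicates 1, 2 and 3). On the opposite strand coverage of the stop codon was 3.06%, 3.44% and 2.69% for all widths, and 0.0358%, 0.107% and 0.233% for peaks of 86 to 200 nt.

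**Figure D2:**
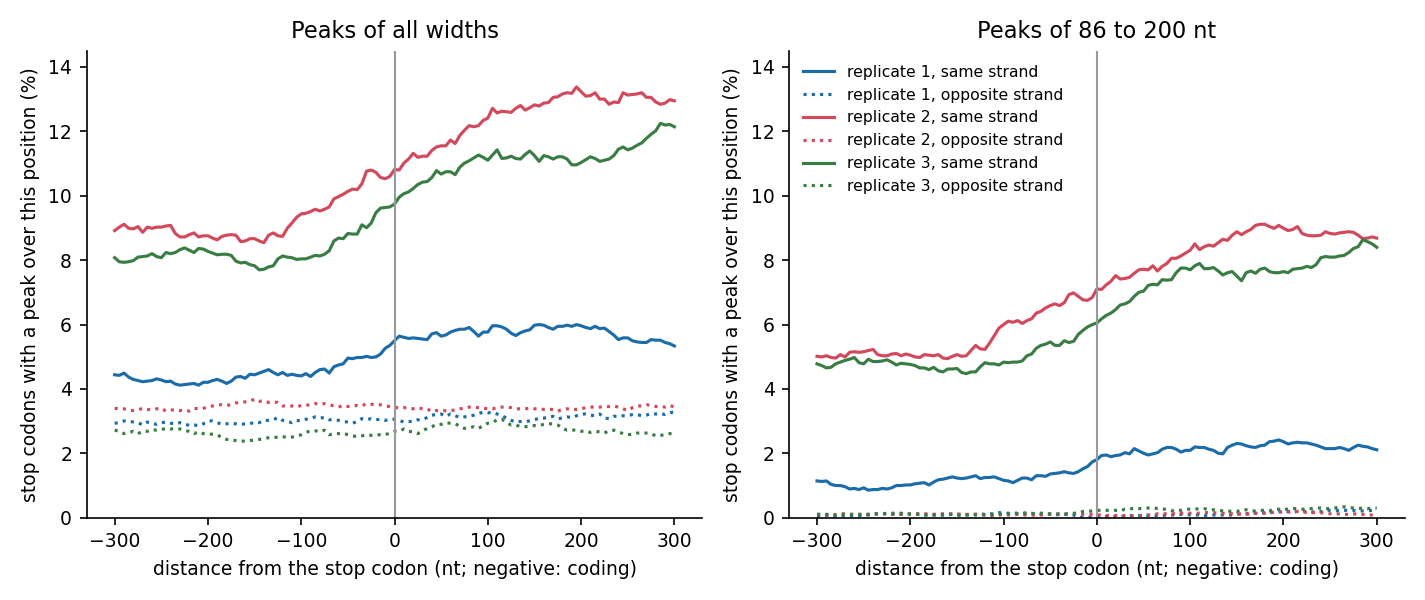
Share of 5585 stop codons (%) with a peak over each position from 300 nt before to 300 nt after the stop codon, per library, for peaks of all widths (left) and of 86 to 200 nt (right). Solid lines are the strand of the transcript and dotted lines the opposite strand. Solid lines rise across the stop codon in all 3 libraries, with no separate maximum at position 0, and dotted lines stay below them and change less in percentage points.

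Start codons, the other end of the coding sequence, served as a second reference. Of 26123 start codons tested with the same overlap, 3.72%, 7.37% and 7.73% were crossed in replicates 1, 2 and 3. Stop codons were crossed more often in each library, by 1.22, 1.53 and 1.51 times. The mean log2 ratio was 0.50 ± 0.18 (exact sign-flip permutation test, two-sided, p = 0.25, the smallest possible) and 0.99 ± 0.08 for peaks of 86 to 200 nt. With 30 nt taken off both ends of every peak it was 0.19 ± 0.19, from -0.03 to 0.33 over libraries.

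Most of the stop codons crossed at all were crossed in a single library. Of the 26997 tested, 21117 were crossed in none, 4480 in 1 library, 1242 in 2 and 158 in all 3, where the opposite strand had 2172, 112 and 4 (0.0148% of those tested). Replicates 2 and 3 shared 1092 stop codons, 35.8% of those crossed in replicate 2 and 34.6% of those in replicate 3. Replicate 1 shared 315 with replicate 2 and 309 with replicate 3, or 25.6% and 25.1% of its own. Replicate 1, with the fewest crossings, limited the overlap over all 3. Without it, 1092 stop codons were crossed in both remaining libraries. With peaks of 86 to 200 nt the numbers were 2711, 728 and 51, against 103, 15 and 1 on the opposite strand.

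Recurrence was also counted by peak, as the share of members that shared at least 1 nt with any same-strand peak of a second library. In replicate 1, 56.1% of members were found in replicate 2 and 60.0% in replicate 3. In replicate 2, 30.1% were found in replicate 1 and 65.8% in replicate 3. In replicate 3, 26.6% were found in replicate 1 and 60.6% in replicate 2. Averaged over both directions, the 3 pairs of libraries had a mean of 49.9 ± 11.5% (SD over pairs, which share libraries). Peaks wholly inside coding sequence had 37.6 ± 11.3% and were below the members in 6 of 6 ordered pairs. Peaks wholly inside 3′UTRs had 52.3 ± 13.8% and were above the members in 5 of 6. For peaks of 86 to 200 nt the order was 32.6 ± 9.92% in coding sequence, 39.5 ± 14.0% across stop codons and 46.8 ± 13.8% in 3′UTRs. Members therefore stood between the other classes in that width range, by less than the spread between pairs. The order against 3′UTRs turned with an overlap of 30 nt on each side (53.4% in members against 52.3%) and with 30 nt taken off both ends (50.2% against 34.7%).

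The 158 stop codons crossed in every library belonged to 155 genes, 0.742% of the 20885 genes tested. By library, 5.58%, 13.5% and 13.9% of genes had a crossed stop codon in replicates 1, 2 and 3. A stop codon crossed in at least 1 library was found in 25.1% of genes and in at least 2 libraries in 6.39%. Adam9, a cell surface metalloprotease, had a pair of annotated stop codons 13 nt apart under the same peaks, Calu had a pair 64 nt apart, and Tmpo, which encodes proteins of the nuclear envelope, had a pair in different exons. Of the 158, 147 were in genes with another exonic peak in all libraries, and 27 had a peak over 1000 nt in at least 1 library. The stretch covered in common by the 3 libraries had a median of 75.5 nt and was at least 25 nt. In 46 cases each library's narrowest peak was 86 to 200 nt wide, and the common stretch then had a median of 69.5 nt, with 26 nt of it coding and 36.5 nt in the 3′UTR. The central part reached at least 10 nt to both sides of the stop codon in all libraries for 12, in 2 libraries for 31, in 1 library for 57 and in none for 58. On the opposite strand 16 were also crossed in at least 1 library.

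The 12 with the central part across in all libraries were named by a rule of smallest summed width. Prpf38b, which encodes a pre-mRNA splicing factor, had peaks of 103, 102 and 102 nt in replicates 1, 2 and 3 over its TGA, reaching 45 to 54 nt into the coding sequence and 45 to 54 nt into the 3′UTR. Casd1, encoding an enzyme that O-acetylates sialic acid, had peaks of 103, 107 and 103 nt over its TAG. In these genes the 3 libraries placed nearly the same interval on the stop codon, with a common stretch of 93 nt in Prpf38b and 100 nt in Casd1. Alg10b, a glucosyltransferase of N-glycan assembly, had peaks of 137, 95 and 85 nt with 85 nt in common. Leo1, a subunit of the Paf1 complex that accompanies RNA polymerase II, had peaks of 93, 143 and 105 nt with 88 nt in common, and its 3′UTR was only 134 nt long. Tm9sf3, a membrane protein of the Golgi, had peaks of 99, 192 and 201 nt. Each of these 5 genes had further exonic peaks in all libraries.

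In the others at least 1 library had a wide peak. Nckap1, a subunit of the actin-regulating WAVE complex, had widths of 86, 177 and 408 nt. Rprd1b, which binds the tail of RNA polymerase II, had 844, 104 and 106 nt. In Gm49336 the widths were 1932, 106 and 106 nt, and in Ctsa, the lysosomal protease cathepsin A, they were 5022, 107 and 116 nt. Calu, a calcium-binding protein of the endoplasmic reticulum, had 1077, 165 and 2205 nt, and Vps45, which acts in vesicle fusion, had 1421, 244 and 3740 nt. Of the 29 genes that the rules named, 23 still had a stop codon crossed in every library without peaks over 1000 nt. The number was 15 with an overlap of 30 nt on each side, 12 with 30 nt taken off both ends of each peak, which the rule itself fixed for these 12, and 8 with peaks of 86 to 200 nt.

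**Figure D3:**
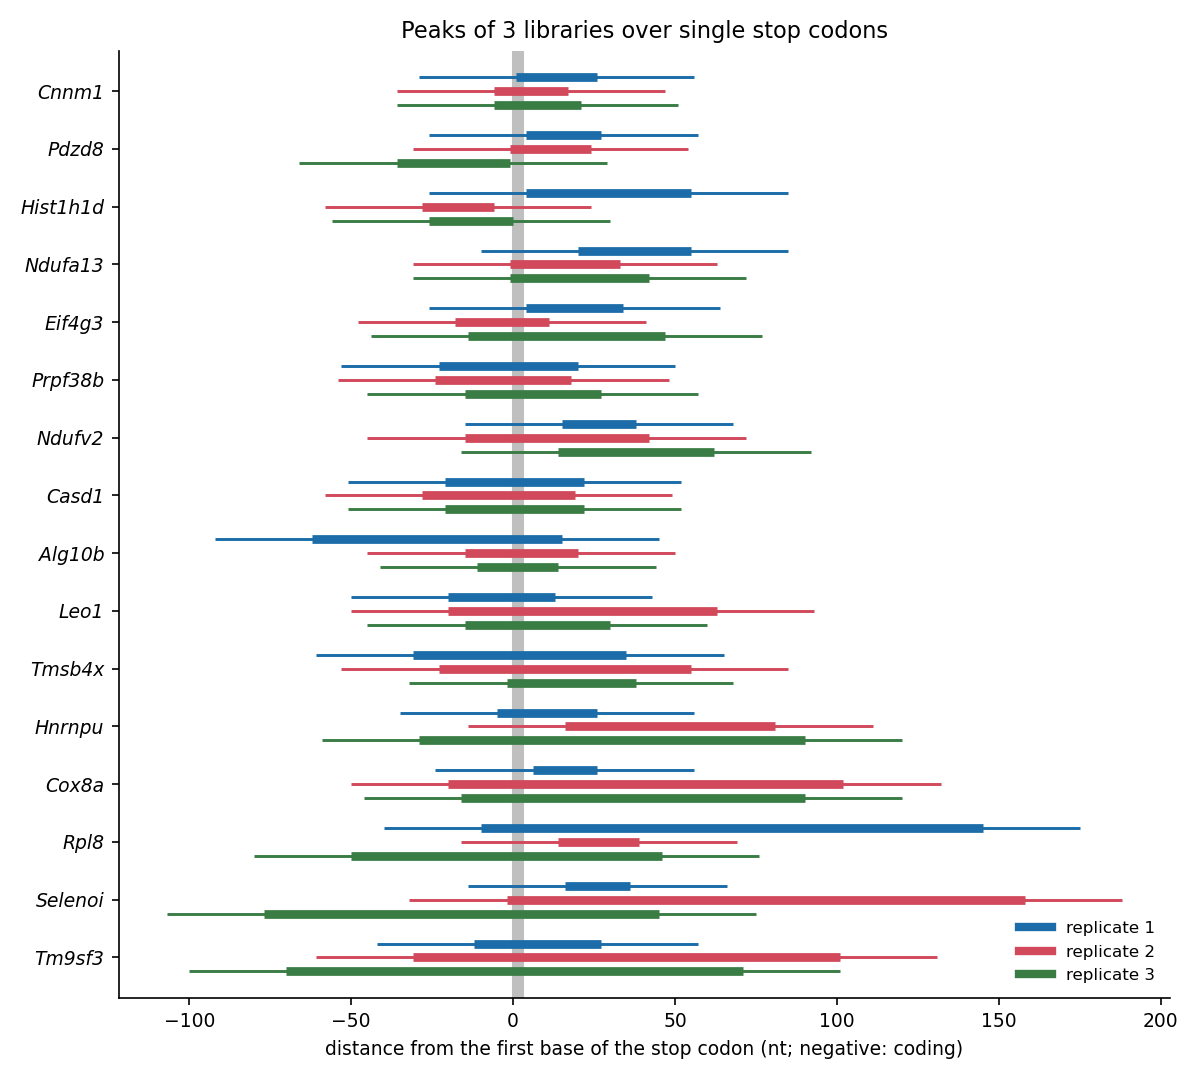
Extent of the narrowest peak of each library over the stop codon of genes named by the rules and of Pdzd8, where all 3 peaks were at most 250 nt wide. The horizontal axis is the distance in nt from the first base of the stop codon, grey marks the stop codon, thin lines are the deposited interval and thick lines the central part. In Prpf38b, Casd1, Alg10b, Leo1 and Tm9sf3 all 3 thick lines lie across the stop codon, and in Hist1h1d all 3 lie beside it. In Pdzd8 the thick line of replicate 2 covers it near one end and those of the other libraries lie beside it.

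Of the 155 genes, 2 had no exonic peak other than peaks across a stop codon. Cnnm1, of the cyclin M family of magnesium transport proteins, had peaks of 85, 83 and 87 nt with 76 nt in common, and none of its central parts reached 10 nt to both sides. Prss57, a serine protease, had peaks of 80 and 81 nt in replicates 1 and 3 and of 7736 nt in replicate 2. The last of these reached 1039 nt to the coding side and 6694 nt to the other, past a 3′UTR of 1795 nt. All but 1 of the narrow peaks here were of the 79 to 85 nt class, which had the lower strand ratio. The other 27 genes named by the rules had exonic peaks elsewhere in at least 2 libraries.

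Long 3′UTRs went with more crossed stop codons. In 5 equal classes of 3′UTR length, the share crossed rose from 3.54% in the shortest class (10 to 221 nt) to 5.35% in the longest (from 2082 nt) in replicate 1. It went from 8.17% to 15.3% in replicate 2 and from 9.80% to 15.1% in replicate 3. Stop codons crossed in all libraries numbered 17 of 5400 (0.315%) in the shortest class and 53 of 5399 (0.982%) in the longest, and their median 3′UTR was 1334 nt, against 754 nt over all tested. Genes with long 3′UTRs also had more peaks elsewhere: another exonic peak in all libraries was present for 27.1% of stop codons in the shortest class and 62.4% in the longest. Among those alone, the shares went from 6.15% to 6.98%, 16.4% to 21.9% and 20.1% to 21.9% in replicates 1, 2 and 3, with the lowest share in the second class in each library. The difference between the end classes was thus smaller among genes with peaks elsewhere, where it lay between 0.832 and 5.47 percentage points over the libraries, against 1.82 to 7.17 for all stop codons tested. A low level of a transcript and a lack of binding cannot be told apart in these data, since no expression values were used.

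**Figure D4:**
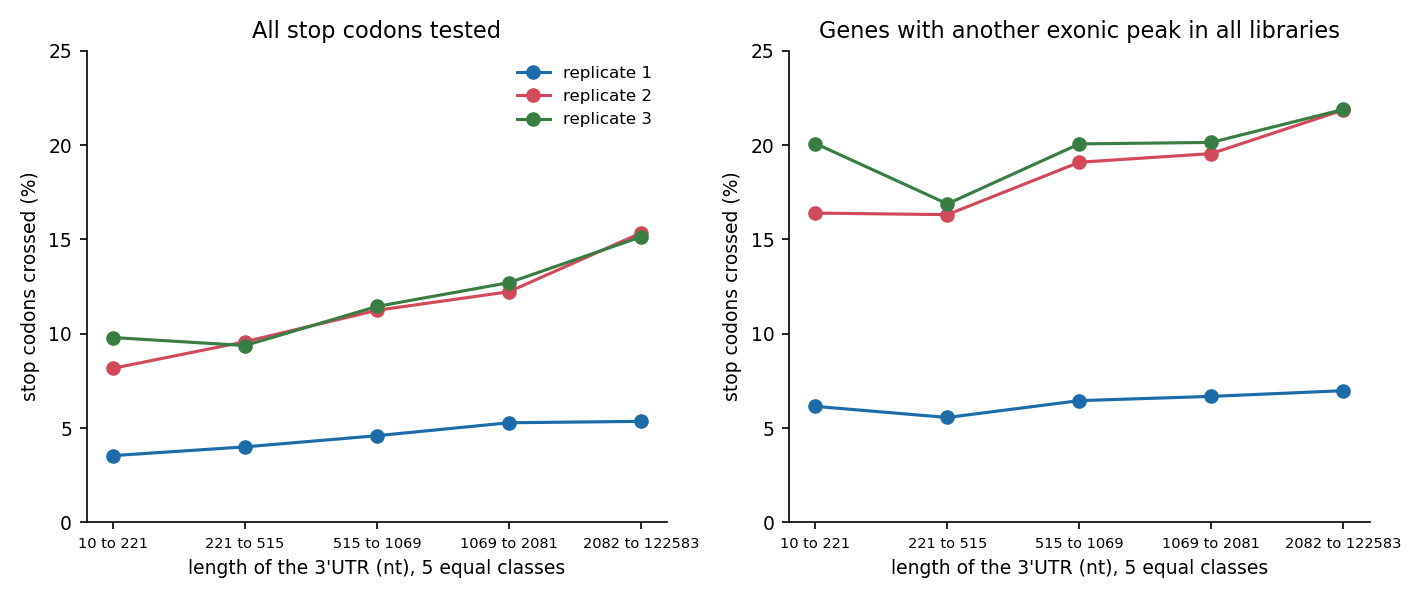
Share of stop codons crossed (%) in each of 5 equal classes of 3′UTR length (nt), 1 line per library, for all stop codons tested (left) and for genes with another exonic peak in all libraries (right). On the left the longest class lies above the shortest in each library, by 5.35 against 3.54% in replicate 1 and 15.3 against 8.17% in replicate 2. On the right the lines are flatter.

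The codons themselves were compared with those of 7689 stop codons that no library crossed, in genes with another exonic peak in all libraries. TAA made up 30.02%, 30.1% and 31.2% of the crossed stop codons in replicates 1, 2 and 3, against 25.4% of the uncrossed (95% Wilson interval 24.4 to 26.3%), and the lowest bound of a library was 27.5%. Among the 158 it was 31.0% (24.3 to 38.6%). The crossed stop codons were not limited to genes with another exonic peak, and over all 26997 tested TAA made up 27.8% (27.2 to 28.3%), which lay within the interval of replicate 1 (27.5 to 32.6%). TGA had 47.9%, 49.9% and 47.4% in the crossed against 50.6% in the uncrossed, and the intervals of replicate 1 (45.1 to 50.7%) and replicate 2 (48.1 to 51.6%) included the latter and that of replicate 3 (45.7 to 49.2%) did not, while TGA had 49.5% over all tested. For peaks of 86 to 200 nt TAA had 37.6%, 31.1% and 31.9%. The base after the stop codon was A in 37.3% of the 158 (30.2 to 45.1%) and in 27.1% of the uncrossed (26.1 to 28.1%), but in 29.8%, 29.8% and 30.6% of the single libraries, against 29.2% over all tested. The surrounding sequence differed in the same direction. Of the 60 coding nt before crossed stop codons 50.1 ± 0.475% were A or T (n = 3), against 47.5% before uncrossed ones, and of the 60 nt after them 52.0 ± 0.229% against 49.1%. The part of base composition in the share of TAA was not tested.

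Matches to miRNA seeds were searched on the strand of the transcript, as the 7 letters complementary to positions 2 to 8 of 24 miRNAs listed for these cells. The density was given per 1000 possible start positions, in windows of 60 nt on each side of the stop codon. On the coding side it was 2.41, 2.46 and 2.43 for stop codons crossed in replicates 1, 2 and 3, against 2.18 for the uncrossed. In the first 15 nt of the 3′UTR it was 2.42, 3.15 and 3.10 against 2.52, and in nt 16 to 60 it was 3.01, 3.31 and 2.59 against 2.56. Crossed stop codons were above the uncrossed on the coding side and in the farther part of the 3′UTR in all 3 libraries, and in the first 15 nt in 2 of 3, but the values of replicate 3 in nt 16 to 60 were close. For peaks of 86 to 200 nt the farther part had 4.56, 3.36 and 2.43 in replicates 1, 2 and 3, so that replicate 3 was then below the uncrossed. The 3′UTR side held 1.21 ± 0.106 times the density of the coding side in the crossed stop codons and 1.17 times in the uncrossed. The mean ratio thus differed from that of the uncrossed by less than the spread between libraries. Single libraries had 1.18, 1.33 and 1.12. In the 121 of the 158 stop codons that had such windows, the density was 1.99 on the coding side, 3.31 in the first 15 nt and 4.66 in nt 16 to 60, with 28 matches on the 3′UTR side and 13 on the coding side, a ratio of 2.15. These few matches were given no test. The 3′UTR windows of the 121 were 58.0% A or T, against 49.1% in the uncrossed, and the part of base composition in the density was not tested.

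Within the stretches that all 3 libraries covered at the 158 stop codons, 36 matches were found in 33 genes. Of these, 25 lay in the 3′UTR, 10 in the coding sequence and 1 across the stop codon. Per 1000 start positions inside the stretches this was 5.17 in the 3′UTR and 2.33 in the coding sequence, where the windows of the uncrossed had 2.55 and 2.18. Stretches and windows differ in how far they reach from the stop codon. Of the 29 genes named by the rules, 8 had a match. They involve 5 miRNAs, printed from RefSeq with the seed in capitals, since they name the sites that follow.
mmu-miR-21a-5p: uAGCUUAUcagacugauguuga
mmu-miR-27b-3p: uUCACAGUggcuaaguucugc
mmu-miR-7a-5p: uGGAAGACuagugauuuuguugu
mmu-miR-148a-3p: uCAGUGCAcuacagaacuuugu
mmu-miR-23a-3p: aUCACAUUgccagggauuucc
The match of miR-21a-5p is ATAAGCT, which 0.436% of the windows around all 20166 stop codons with 60 nt of exon on each side held. That of miR-27b-3p is ACTGTGA (1.70% of windows), that of miR-7a-5p is GTCTTCC (1.09%), that of miR-148a-3p is TGCACTG (1.13%) and that of miR-23a-3p is AATGTGA (1.23%). None of these 5 overlaps another by its whole length, but ACTGTGA shares 6 letters with the match of miR-128-3p, also searched, and TGCACTG shares 6 with that of miR-130b-3p. No match at a single gene is more than a description of letters under a peak.

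Sites are printed for 6 of these genes and for Pdzd8, with the match in capitals. They show which matches lay under peaks of every library and how near the stop codon they were.
Pdzd8, miR-21a-5p: cagtgtaatcaATAAGCTatttcaactttc
Ndufv2, miR-21a-5p: aacttccctacATAAGCTttattcggtttg
Leo1, miR-27b-3p: ctgagctacaaACTGTGAatgcgttttata
Cnnm1, miR-7a-5p: cacatgaccagGTCTTCCctcattggctga
Hspa5, miR-148a-3p: tgagttgtaggTGCACTGatctgctagagc
Tmsb4x, miR-148a-3p: cgccgccaataTGCACTGtacattccacga
Tm9sf3, miR-23a-3p: aaatctatactAATGTGAaaattgactaga
In Pdzd8, a tether protein of the endoplasmic reticulum, the match lay at chr19:59299513-59299519 and began 4 nt after the stop codon. An A followed it in the transcript. The Pdzd8 peaks were 83, 85 and 95 nt wide in replicates 1, 2 and 3 and had 55 nt in common, with no central part reaching 10 nt to both sides. The Ndufv2 match, at chr17:66079432-66079438, began 56 nt after the stop codon. In Leo1 the match began 8 nt after it, at chr9:75466306-75466312, and an A followed. Leo1 thus had the stop codon inside the central part of every library's peak and a match inside the common stretch of 88 nt. The matches of Cnnm1, Hspa5 and Tmsb4x began 5, 2 and 21 nt after the stop codon, and that of Tm9sf3 ended 9 nt before it, counting back from the last coding base as 1. Matches so close to the stop codon were found beside matches farther on, and none of the 24 seeds occurred in more than 3.31% of the windows of the stop codons crossed in all libraries.

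Gene lists were read by the number of genes with a crossed stop codon, beside the same share over all genes. Among all genes tested, 40.9% had exonic peaks in all libraries, and of these 14.1% had a stop codon crossed in at least 2 libraries. Chaperones, which fold proteins, had 3 of 33 genes crossed in all libraries (9.09%, against 0.742% over all genes) and 10 of 33 in at least 2 (30.3%, against 6.39%). The 3 were of the endoplasmic reticulum: Canx, the lectin calnexin, with peaks of 95, 364 and 164 nt, Hspa5, the Hsp70 protein BiP, with 89, 98 and 944 nt, and Pdia3, a disulphide isomerase, with 2319, 121 and 1030 nt. In replicate 2 and replicate 3 the cytosolic chaperonin subunits Cct4, Cct5 and Cct8 were also crossed. Of 29 chaperone genes with exonic peaks in all libraries, 10 were crossed in at least 2. The 3 crossed in all libraries became 1 with an overlap of 30 nt on each side, and 0 with peaks of 86 to 200 nt or with 30 nt taken off both ends.

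Proteins of RNA splicing had a share close to that of chaperones for crossing in at least 2 libraries (30.6% and 30.3%). For crossing in all 3 their share was lower (2.78% against 9.09%), which rests on 1 gene against 3. Of 36 hnRNP and SR protein genes, 11 were crossed in at least 2 libraries (30.6%) and 1 in all 3, and all 36 had exonic peaks in every library. The 1 was Hnrnpu, a nuclear scaffold and RNA-binding protein, with peaks of 91, 125 and 179 nt. Tardbp, which encodes the RNA-binding protein TDP-43, was crossed in replicates 1 and 2 by peaks of 89 and 87 nt. Among translation initiation and elongation factors, 10 of 41 genes were crossed in at least 2 libraries (24.4%) and 2 in all 3. These were Eif4g3, a scaffold of cap-dependent initiation, with 90, 89 and 121 nt, and Eif4g2, its relative in cap-independent initiation, with 108, 91 and 715 nt. Several subunits of initiation factor 3, Eif3b, Eif3d, Eif3f, Eif3g and Eif3k, were crossed in 2 libraries each.

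Of 83 nuclear-encoded subunits of the respiratory chain, 47 (56.6%, against 25.1% over all genes) were crossed in at least 1 library, 16 in at least 2 and 3 in all 3. Ndufa13, of complex I, had peaks of 95, 94 and 103 nt, although its 3′UTR was only 41 nt long, so that the peaks ran past the annotated end of the transcript. Ndufv2, also of complex I, had 83, 117 and 108 nt, and Cox8a, of cytochrome c oxidase, had 80, 182 and 166 nt. The list was uneven between libraries, with 9, 27 and 32 genes in replicates 1, 2 and 3. Proteasome subunits were crossed in at least 2 libraries in 6 of 39 genes and in none in replicate 1.

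Cytosolic ribosomal proteins were the only list below the share over all genes for crossing in at least 1 library. Of 85 genes, 12 were crossed in at least 1 library (14.1%, against 25.1%), 2 in at least 2 and 1 in all 3. Exonic peaks in all libraries were also fewer, in 22 of 85 genes (25.9%, against 40.9%). The 1 was Rpl8, of the large subunit, with peaks of 215, 85 and 156 nt over a stop codon followed by a 3′UTR of 35 nt. Replication-dependent histones were crossed in at least 1 library in 18 of 52 genes (34.6%, against 25.1% over all genes). In all 3 libraries Hist1h1d, a linker histone, was crossed, with 111, 82 and 86 nt. Ribosomal proteins and histones have near-identical copies in the genome, and how reads shared between copies were placed is not given in the sources used here.

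**Figure D5:**
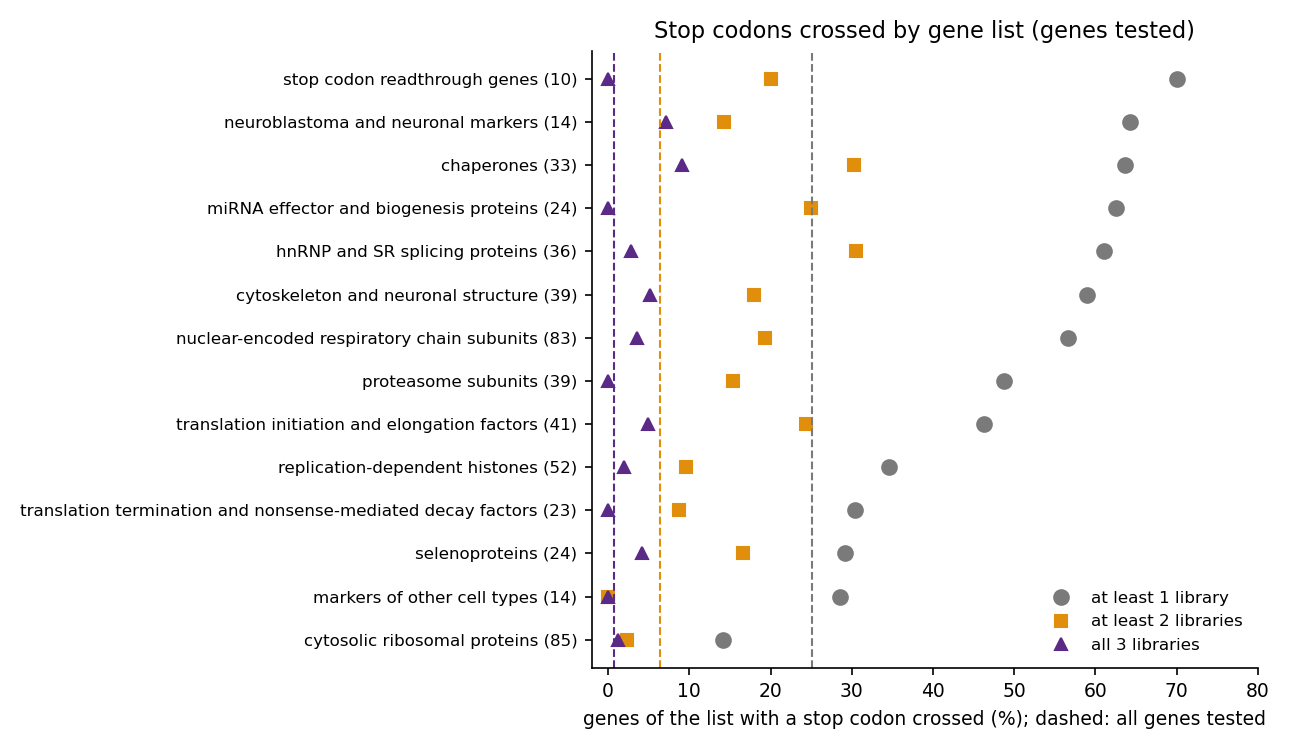
Share of the genes of each list (%) with a stop codon crossed in at least 1 library (circles), at least 2 libraries (squares) and all 3 libraries (triangles), with the number of genes tested in brackets. Dashed lines give the same shares over all genes tested, 25.1, 6.39 and 0.742%. Cytosolic ribosomal proteins lie left of the lines for at least 1 and at least 2 libraries. Chaperones, hnRNP and SR proteins, histones and respiratory chain subunits lie to the right of all lines. So do translation initiation and elongation factors, selenoproteins, genes of cytoskeleton and neuronal structure, and neuroblastoma and neuronal markers.

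Factors of translation termination and nonsense-mediated decay were near the shares over all genes for crossing in at least 1 and at least 2 libraries. Of these 23 genes, 7 were crossed in at least 1 library (30.4%, against 25.1% over all genes). In at least 2 libraries 2 were crossed (8.70%, against 6.39%), Etf1 and Gspt1, the release factors eRF1 and eRF3. Etf1 had peaks of 109 and 102 nt in replicates 1 and 3, and Gspt1 had 108 and 99 nt in replicates 2 and 3. Genes known for readthrough of their stop codon were above those shares. Of 10 such genes, 7 were crossed in at least 1 library (70%, against 25.1%) and 2 in at least 2 (20%, against 6.39%). Exonic peaks in all libraries were also more frequent, in 8 of 10 (80%, against 40.9% over all genes). Mdh1, malate dehydrogenase, had 83 and 335 nt in replicates 2 and 3, and Oprl1, the nociceptin receptor, had only peaks of 1580 and 1766 nt, in replicates 1 and 2. Selenoproteins, which read an internal TGA as selenocysteine, were crossed in 4 of 24 genes in at least 2 libraries (16.7%, against 6.39%). Selenoi, an ethanolamine phosphotransferase, was crossed in all 3 by peaks of 80, 220 and 182 nt. In a list of 10 genes 1 gene moves the share by 10 percentage points.

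Among proteins of the miRNA pathway, 15 of 24 genes were crossed in at least 1 library (62.5%), 6 in at least 2 and none in all 3. Tnrc6a, the GW182 protein that joins Ago2 to the deadenylases, was crossed by peaks of 87 and 101 nt in replicates 1 and 3. Drosha, the nuclease that cuts primary miRNAs, had 82 and 92 nt in replicates 2 and 3. Genes of cytoskeleton and neuronal structure were crossed in at least 2 libraries in 7 of 39, among them Tmsb4x, the actin-sequestering thymosin β4, with 126, 138 and 100 nt, and Vim, the filament protein vimentin, with 452, 315 and 770 nt.

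The cell type named in the labels was checked against markers. Of 14 neuroblastoma and neuronal markers 11 had exonic peaks in every library (78.6%, against 40.9% over all genes), and each had a peak in at least 1. In at least 1 library 9 had a stop codon crossed (64.3%, against 25.1%), and in at least 2 libraries 2 had. Hand2, a transcription factor of sympathetic neurons, had its stop codon crossed in all libraries, by 572, 129 and 132 nt. Of 14 markers of other cell types 5 had exonic peaks in every library (35.7%, near the 40.9% over all genes) and 13 in at least 1. A stop codon was crossed in 1 library in 4 of them (28.6%, near the 25.1% over all genes), and in more than 1 library in none. A peak can arise from little RNA, so that presence of a marker here does not measure its level.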

How the data were processed

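The authors called peaks in every sample. Their deposited table holds the position, strand and sample of each peak and a score. The submitters' processing notes name FastQC, cutadapt, STAR and mm10, which is GRCm38. The peak caller and its threshold are not given in the sources used here, and the deposited score has no stated unit and was used for no ranking. Starts were read as counted from 0. It holds 0 other columns of per-sample values. Annotation was GENCODE mouse M21, from which 26997 stop codons with at least 10 nt of coding sequence and of 3′UTR were tested, and sequence GRCm38.p6.

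Means are over 3 libraries of 1 group. The exact sign-flip permutation test enumerated all signs. Genes were named by 3 rules: the 12 smallest summed peak widths among stop codons with the central part across in all libraries, genes with no other exonic peak, and up to 3 genes per list. Some of the items so named are not reported here. The members, the lists and the listed miRNAs were chosen with earlier results of these data known. Seed matches were counted in fixed windows of 60 nt and not per peak, 24 of 25 listed miRNAs having a RefSeq sequence. Alternatives changed the overlap, the width, the transcripts and the libraries. The rule was tested on simulated peaks. Scripts ran under Python 3.11.15 with pysam 0.24.0, scipy 1.17.1, pandas 2.3.3, matplotlib 3.10.9 and numpy 2.4.6.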

Additional observations from a re-analysis of the deposited data

How the results depend on the processing

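The strand ratio and the ratio to the position before the stop codon kept their direction in every library under each alternative tried. After 30 nt had been taken off both ends of every peak, the log2 ratio of stop to start codons ranged from -0.03 to 0.33 over libraries and that to the position after the stop codon from -0.42 to 0. The order of members and peaks in 3′UTRs by recurrence, and the shares of the stop codons, turned under some alternatives. With an overlap of 30 nt on each side 35 stop codons were crossed in all libraries, and the longest class of 3′UTR exceeded the shortest 11-fold in place of 3.12-fold, which rests on 11 stop codons against 1. With the ends taken off, the share of peaks was 0.144% and 12 stop codons remained, among which TAA was -18.8, TAG 18.3 and TGA 0.45 percentage points from the uncrossed. With peaks of 86 to 200 nt the share was 0.687%, 51 stop codons were crossed in all libraries, TAA differed by 13.0 and TGA by -14.6 percentage points, and the 3′UTR side held 1.41 times the seed density of the coding side. In at least 2 libraries 1400 stop codons were crossed. Without replicate 1 and without replicate 2, TAG was -5.21 and -4.0 percentage points from the uncrossed. Leaving out each replicate gave 309 to 1092 stop codons crossed in the remaining libraries, a recurrence of 43.1 to 63.2%, and a ratio of the longest to the shortest 3′UTR class of 2.04 to 2.63. The alternatives without peaks over 1000 nt and those for seed matches were chosen after the data had been seen. No paired analysis was possible because there is only 1 group of samples, so that no replicate block between groups exists, while the ratios of strands and positions were taken within each library. Peak width limits the resolution, and the padding of 30 nt was only inferred. No result says how many reads lay under a peak.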

Other observations

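On the opposite strand 4 stop codons were crossed in all 3 libraries, those of Ccpg1, Crygf, Gm6569 and Mettl5. They were chosen after their values were seen. Of these Gm6569 was also crossed on its own strand, in replicate 2, and the other 3 in no library. Crygf encodes a crystallin of the eye lens and Mettl5 a methyltransferase of ribosomal RNA.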
